A study of Mus musculus with 10 samples.

Results

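Of the 626 probes of a NanoString nCounter miRNA panel, 4 stand for the miR-30 family here: mmu-miR-30b, mmu-miR-30c, mmu-miR-30d and mmu-miR-30e. These members were followed through all 10 libraries of the series. The panel's miR-30a probe, also of this family, is not among them and is described apart. The probes were chosen by name. The libraries came from mouse B cell progenitors of C57BL/6 background, taken from fetal liver at E14.5 and transformed with Abelson virus, a retrovirus that carries the v-Abl kinase and immortalises early B-lineage cells. There were 5 wild type samples (wild type 1 to 5) and 5 samples of the genotype Bim3’UTRmut/mut (mutant 6 to 10), in which both copies of Bim are altered in the 3’UTR; Bim, also called Bcl2l11, is a BH3-only protein that promotes apoptosis. Both groups carried v-Abl from the pMSCV-v-Abl vector, grew in the same medium and had IL-7 added during transformation. The labels give neither the altered bases nor the embryo behind each sample. The p-values therefore refer to the spread among these 10 samples, part of which may be technical. Each n counts samples, which are not known to be independent lines. In RNA from bulk cultures, fewer cells holding a miRNA and less of it per cell cannot be told apart.

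The miR-30 miRNAs are a family conserved across vertebrates, made from paired hairpin genes at several places in the genome. Their mature strands share a seed, the stretch near the 5′ end that pairs with target mRNAs, and therefore share most predicted targets. The family is best known for repressing Snai1 and other inducers of mesenchymal state, and miR-30a for repressing the autophagy gene Beclin 1. Because the members come from separate loci, they were compared by locus here.

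The mature sequences of miR-30c and miR-30e are shown because they let a reader see which bases members share and where they differ. Those of miR-30a and miR-384-5p are shown because they have the same seed. They were read from RefSeq's GRCm38.p6 annotation, and the capitals mark the seed, bases 2 to 8 from the 5′ end.
miR-30c: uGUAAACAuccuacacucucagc
miR-30e: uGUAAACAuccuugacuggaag
miR-30a: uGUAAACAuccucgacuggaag
miR-384-5p: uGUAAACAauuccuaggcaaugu
All 4 sequences carry the seed GUAAACA. miR-30c and miR-30e are identical over their first 12 bases and differ at 5 of the 22 positions compared, counted from 1 at the 5′ end. miR-30e and miR-30a are identical at 21 of 22 positions, and the change from miR-30e to miR-30a is U13C. miR-384-5p is identical to each of the other sequences over its first 8 bases and differs from them at 10 to 12 positions.

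The 4 members map to 3 pairs of hairpins (GRCm38.p6). Mir30b (chr15:68337415-68337510) and Mir30d (chr15:68341208-68341289) lie 3697 bases apart on chromosome 15. No other annotated gene overlaps them, and the nearest protein-coding gene is Zfat, 78.5 kb from Mir30b. Mir30c-1 (chr4:120769534-120769622, minus strand) and Mir30e (chr4:120772606-120772697, minus strand) lie 2983 bases apart on chromosome 4, inside the span of Nfyc (chr4:120757435-120831579), which encodes a subunit of the transcription factor NF-Y. Mir30f is annotated at the coordinates of Mir30e. Mature miR-30c is also made from Mir30c-2 (chr1:23291701-23291784, plus strand), 19361 bases from Mir30a (chr1:23272269-23272339, plus strand). The miR-30c probe therefore sums a locus shared with miR-30e and a locus shared with miR-30a.

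The panel ligates a tag to each miRNA and counts barcoded probes bound to the tagged molecules. Total counts ran from 356141 to 470493 per library and mouse miRNA counts from 240469 to 354826. Background was set per library at the mean + 2 SD of the 8 negative control probes, a threshold of 90.5 to 127 counts, and 116 of 566 mouse miRNA probes exceeded it in at least 5 libraries. The blood and B-lymphoid markers miR-142-3p, miR-142-5p, miR-150, miR-155 and miR-181a all passed this filter, and none of 12 markers of other cell types (neural, muscle, mesenchymal, hepatocyte, endothelial, myeloid and erythroid) did. Of the 120 values of those 12 markers, 5 were above background. They belonged to endothelial miR-126-3p (2 libraries), myeloid miR-223 (2) and erythroid miR-451 (1). The highest miR-126-3p count was 234 in mutant libraries, against 45 to 65 in wild type. The summed count of those 12 ran from 556 to 663 in wild type and from 469 to 817 in mutant libraries. The column headers number the wild type libraries 1 to 5 and the mutant libraries 6 to 10, and share 1 identifier. If these numbers are lanes, which the headers do not say, lane and genotype cannot be told apart. The mutant libraries differed among themselves. Mutant 9 and 10 had the highest mouse miRNA totals (354826 and 331407) and the lowest counts of the glycolytic control mRNA Gapdh (244 and 309, against 625 to 1187 in the others). Mutant 6, 7 and 8 had the lowest counts of the MHC class I light chain mRNA B2m (1592, 1584 and 1490, against 3250 to 4561 in the others). Bim mRNA was not analysed here.

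All 4 miR-30 members were above background in all 10 libraries, so each passed the filter in both genotypes. The miR-30c probe counted 7.11 to 17.9 times its library's threshold, miR-30d 2.85 to 7.60 times, miR-30b 1.54 to 3.93 times and miR-30e 1.32 to 3.08 times. Counting error alone was 2.28% to 3.46% of a miR-30c count and 5.50% to 8.03% of a miR-30e count. As a share of all mouse miRNA counts, the 4 probes together made up 0.678% ± 0.0454 of wild type and 0.846% ± 0.0883 of mutant libraries (mean ± SD, n = 5 each). The shares ran from 0.610% to 0.720% in wild type and from 0.742% to 0.982% in mutant libraries, with mutant 9 the highest. The ranges did not overlap, which is given as a description because the family was chosen with results of these libraries known. How often single miRNAs or other families separate the genotypes on this scale was not counted, so the separation is not shown to be particular to miR-30. Of the summed counts of these 4 probes, miR-30c supplied 52.9% ± 3.22, miR-30d 22.6% ± 2.75, miR-30b 14.7% ± 1.90 and miR-30e 9.78% ± 0.71 (mean ± SD, n = 10). The miR-30a probe was left out of all shares. No source used here gives the efficiency of each probe, so these shares describe counts, not relative numbers of molecules in the cells.

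The chromosome 15 pair is described first. miR-30d counted 397, 389, 359, 361 and 335 in wild type 1 to 5 and 418, 482, 706, 815 and 592 in mutant 6 to 10. Every mutant library lay above every wild type library, with mutant 8 and 9 the highest. After TMM scaling (trimmed mean of M-values, which scales libraries to their typical miRNA), the wild type mean was 392 ± 15.8 and the mutant mean 561 ± 103 (normalised counts, ± SD, n = 5 each). The fitted log2 fold change, mutant over wild type, was 0.52 (SE 0.14, 95% interval 0.21 to 0.82), or 1.43-fold (1.15 to 1.77). Its unadjusted p was the smallest of the 116 miRNAs, and it did not pass after adjustment in edgeR's quasi-likelihood test (Benjamini-Hochberg adjusted p = 0.250). The DESeq2 Wald test on the same counts gave the same size of change and called it, with a log2 fold change of 0.52 and an adjusted p of 0.00455. The normalised counts of the genotypes did not overlap for miR-30d, which was so in the same direction for 1.72% of the tested miRNAs (2 of 116), and in either direction for 2.59%.

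miR-30b, made from the neighbouring hairpin, had normalised counts of 326, 305, 293, 274 and 203 in wild type 1 to 5 and 269, 341, 324, 344 and 374 in mutant 6 to 10. The groups overlapped: mutant 6 and 8 lay inside the wild type range and wild type 5 lay below every other library. The means were 280 ± 47.4 in wild type and 330.4 ± 38.5 in mutant libraries (SD, n = 5 each). The log2 fold change was 0.24 (SE 0.15, 95% interval -0.09 to 0.56) with an edgeR adjusted p of 0.424. Without wild type 5 it was 0.14 (edgeR adjusted p = 0.633).

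The miR-30c probe, which sums hairpins on chromosomes 4 and 1, counted 959, 940, 911, 935 and 836 in wild type 1 to 5. It counted 1018, 1052, 1078, 1918 and 1642 in mutant 6 to 10. Mutant 6, 7 and 8 lay just above the wild type range and mutant 9 and 10 far above it. The raw counts did not overlap, as was true in this direction for 6.03% of the tested miRNAs, while the normalised counts overlapped: wild type 4 had 1048, above mutant 7 and 8 at 1030.2 and 1016. The means were 977 ± 43.1 and 1248 ± 278 normalised counts (SD, n = 5 each), with a log2 fold change of 0.35 (SE 0.15, 95% interval 0.02 to 0.69; edgeR adjusted p = 0.373). Without mutant 9 and 10 the value was 0.10 (SE 0.07; edgeR adjusted p = 0.486). The high miRNA total and low Gapdh of those libraries and the low B2m of mutant 6 to 8 moved with this value, and their part in it was not tested.

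miR-30e counted 174, 182, 169, 191 and 155 in wild type 1 to 5 and 176, 216, 225, 330 and 241 in mutant 6 to 10. Mutant 6 lay inside the wild type range, the other mutant libraries lay above it, and mutant 9 was the highest. Normalised counts were 186 ± 16.9 and 221 ± 29.6 (mean ± SD, n = 5 each). The log2 fold change was 0.25 (SE 0.12, 95% interval -0.01 to 0.51; edgeR adjusted p = 0.373), and 0.14 without mutant 9 and 10 (edgeR adjusted p = 0.502).

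**Figure D1:**
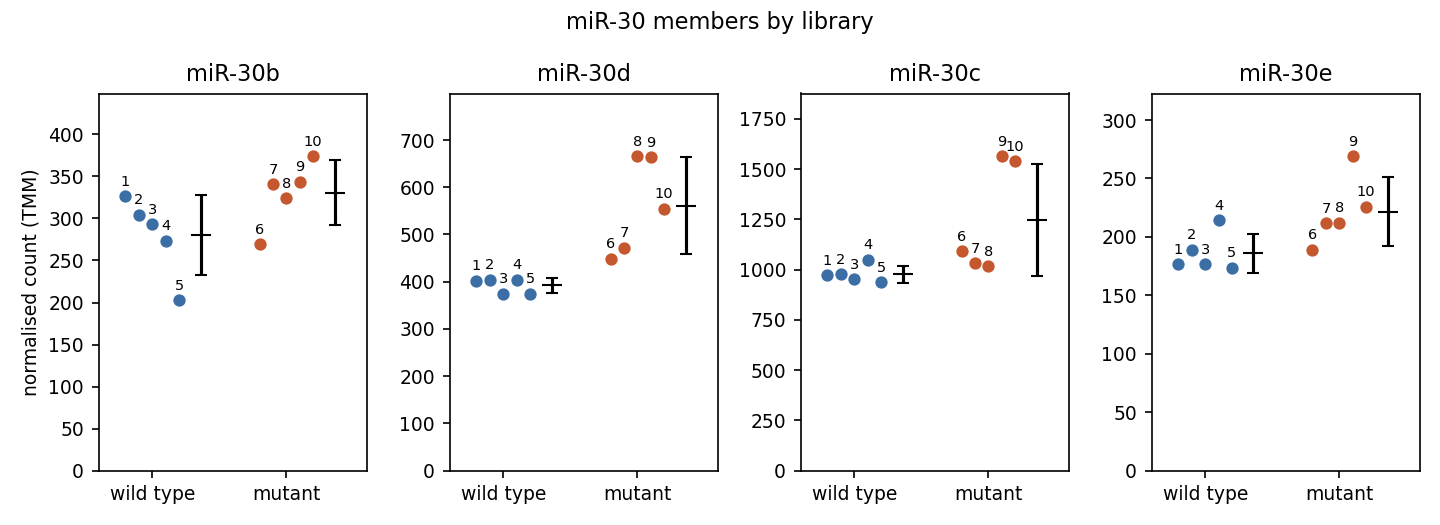
Normalised counts (TMM, y axis from 0) of miR-30b, miR-30d, miR-30c and miR-30e in each library, labelled by its sample number, for wild type (blue) and mutant (orange). Black bars give the mean ± SD of 5 libraries. miR-30d is higher in every mutant than in every wild type library, and for miR-30c mutant 9 and 10 lie at 1563 and 1539 while the other 8 libraries lie between 936 and 1093.

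Across the 116 miRNAs, edgeR called 0 (0%) at an adjusted p of 0.05 and had 11 (9.48%) at an unadjusted p under 0.05, so 0 of 4 miR-30 members called equals the background. DESeq2 called 5 of the 115 for which it gave an adjusted p (4.35%), miR-30d among them, and limma with voom weights called 0, with 11 at an unadjusted p under 0.05. At an unadjusted p under 0.05 in edgeR and in the upward direction there were 2 members, miR-30d and miR-30c, and 5.17% of all tested miRNAs. All 4 members had fitted values above 0, as did 50% of the tested miRNAs, and their median was 0.30 against 0.00 for all 116. Without mutant 9 and 10 these medians were 0.15 and 0.02. By size of upward change miR-30d ranked 15 of 116, miR-30c 21, miR-30e 33 and miR-30b 36. Other families with a shared seed had 3 of 9 let-7 and miR-98 probes above 0 (median -0.05), 1 of 3 miR-29 probes (median -0.24) and 3 of 4 tested miR-15/16 probes (median 0.09), with 0 called in edgeR in each. These counts describe the lists, and a difference between the families was not tested.

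**Figure D2:**
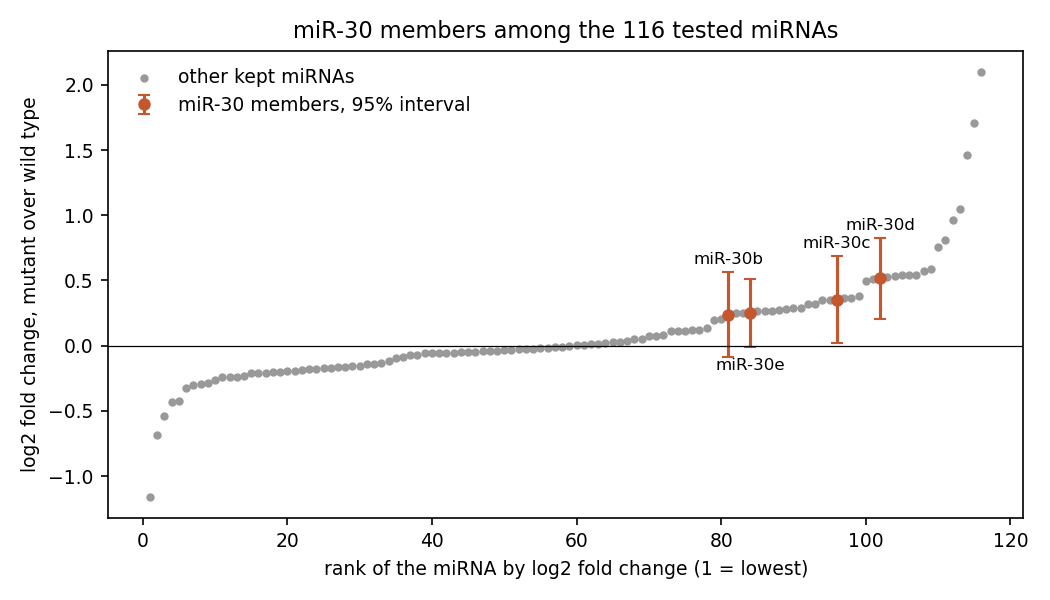
The 116 tested miRNAs ordered by log2 fold change, mutant over wild type (y axis), with the 4 miR-30 members in orange and their 95% intervals. The members lie between 0.24 and 0.52, inside the range of the other miRNAs, which reaches 2.10, and the intervals of miR-30b and miR-30e include 0.

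The members differed in how much they spread between libraries of a genotype. In wild type, the SD of log2 normalised counts was 0.06 for miR-30d and 0.06 for miR-30c, the 6th and 8th smallest of 116, against a median of 0.18 over all tested miRNAs. For miR-30d the SD that counting error alone gives is 0.08, so its wild type libraries differed by no more than counting error. miR-30e had 0.13, close to its counting SD of 0.11, and miR-30b had 0.27 against a counting SD of 0.09. Wild type 5 set the miR-30b value, which was 0.11 without it, an alternative chosen after seeing the data. In mutant libraries the SD was 0.31 for miR-30c, 0.27 for miR-30d, 0.19 for miR-30e and 0.18 for miR-30b, with a median of 0.30 over all tested miRNAs. Among mutant 6, 7 and 8 alone it was 0.06 for miR-30c, 0.31 for miR-30d, 0.10 for miR-30e and 0.18 for miR-30b. Over all 5 mutant libraries the spread of the 4 members exceeded the counting SD, which was 0.04 to 0.10.

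Ratios of 2 members within a library do not depend on how libraries are scaled. The ratio of miR-30d to miR-30b, both from chromosome 15, was 1.23, 1.33, 1.28, 1.48 and 1.85 in wild type 1 to 5 and 1.67, 1.39, 2.05, 1.93 and 1.48 in mutant 6 to 10. Mutant 8 and 9 had the highest values, and the genotypes overlapped widely. The log2 ratio was 0.50 ± 0.24 in wild type and 0.75 ± 0.24 in mutant libraries (mean ± SD, n = 5 each), a difference of 0.25 (exact two-sided permutation p = 0.127, adjusted p = 0.381 over 6 pairs of members). A larger change of miR-30d than of miR-30b is therefore not shown by these libraries.

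The ratio of miR-30e to miR-30c, which share the chromosome 4 locus, was 0.181 to 0.204 in wild type and 0.147 to 0.209 in mutant libraries, lowest in mutant 10 and highest in mutant 8. The log2 ratio was -2.40 ± 0.07 in wild type and -2.48 ± 0.21 in mutant libraries (mean ± SD, n = 5 each), and the exact permutation test of the difference gave p = 0.492 (adjusted p = 0.738). Between loci, the ratio of miR-30e to miR-30d was 0.438 to 0.529 in wild type and 0.319 to 0.448 in mutant libraries, with mutant 7 alone inside the wild type range. Its log2 ratio was -1.08 ± 0.10 and -1.33 ± 0.19, a difference of -0.25 with an exact permutation p of 0.0159 (n = 5 each), the smallest of the 6, which did not pass after adjustment (p = 0.0952). After background subtraction the difference was -0.16 (exact permutation p = 0.159), and without mutant 8 it was -0.17. The differences for the other 3 pairs were 0.08 for miR-30c over miR-30b, 0.17 for miR-30d over miR-30c and -0.00 for miR-30e over miR-30b, with exact permutation p values from 0.317 to 0.976. These values turned on single libraries: miR-30d over miR-30c was 0.04 without mutant 8, and miR-30c over miR-30b was 0.01 without mutant 9 and 0.18 without wild type 5. The smallest p that 5 against 5 can give is 0.00794.

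**Figure D3:**
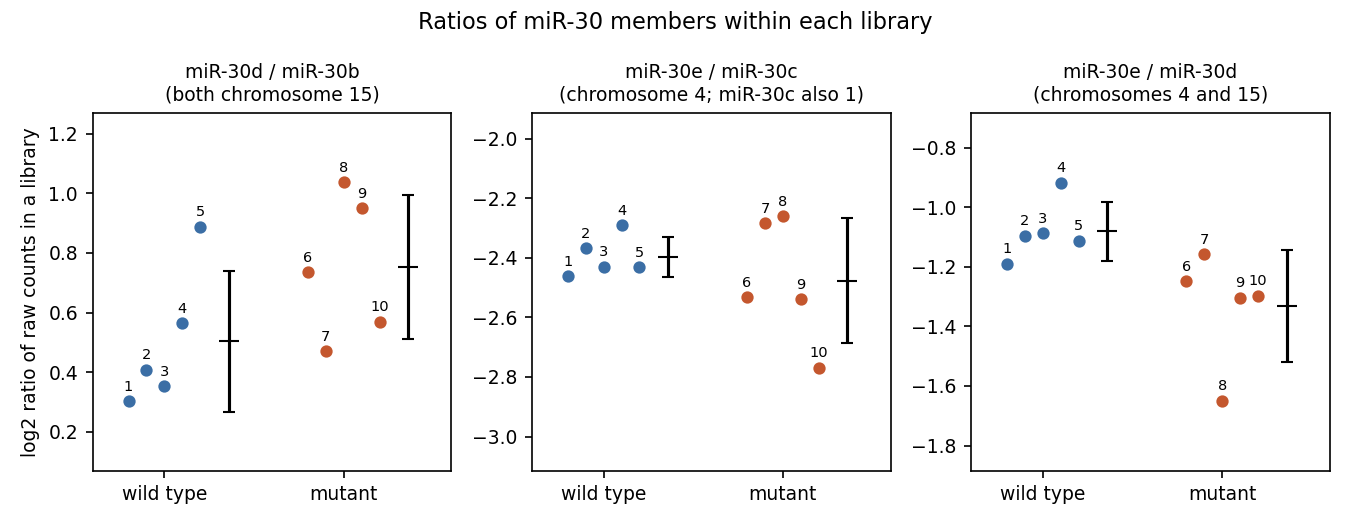
Log2 ratios of raw counts within each library (y axes, each spanning the same number of log2 units) for miR-30d over miR-30b, miR-30e over miR-30c and miR-30e over miR-30d. Points are libraries labelled by sample number, and black bars give the mean ± SD of 5 libraries. The wild type ratio of miR-30e to miR-30c stays between 0.181 and 0.204, while miR-30d over miR-30b runs from 1.23 to 1.85.

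How steady a ratio was did not follow the shared locus. Over all 10 libraries the SD of the log2 ratio was 0.15 for miR-30e over miR-30c, which share the chromosome 4 locus. The miR-30c probe also counts chromosome 1 product. It was 0.26 for miR-30d over miR-30b, from the chromosome 15 locus, and 0.19 to 0.25 for the 4 pairs from different chromosomes. The order differed within the genotypes. In wild type the steadiest pair was miR-30d over miR-30c (0.04) and the widest miR-30e over miR-30b (0.28). In mutant libraries miR-30e over miR-30b was the steadiest (0.15) and miR-30d over miR-30c the widest (0.32). Both extreme pairs in each genotype thus came from different chromosomes. Counting error alone gives 0.11 for each of the same-locus pairs, 0.08 for miR-30d over miR-30c and 0.13 for miR-30e over miR-30b. In wild type, miR-30d over miR-30c and miR-30e over miR-30c (0.07) lay below their counting SD. Which of them was steadier there is therefore not resolved.

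By the same measure, each member was compared with the 115 other tested miRNAs. The probes outside the family with the steadiest ratio to miR-30e were miR-25 (SD 0.12) and miR-106b (0.16), which share a cluster with each other, and its closest fellow member, miR-30c, ranked 2 of 115. For miR-30c they were miR-350 (0.13) and miR-25 (0.15), with miR-30e at rank 4. For miR-30d they were miR-574-5p (0.16) and miR-350 (0.18), with miR-30e at rank 4, miR-30c at 6 and its neighbour miR-30b at 11. For miR-30b they were miR-762 (0.16) and let-7e (0.21), with miR-30e at rank 4 and its neighbour miR-30d at 9. The median SD over all tested miRNAs was 0.37 for miR-30b, 0.41 for miR-30c, 0.43 for miR-30d and 0.35 for miR-30e. These are descriptions over 10 libraries whose column headers share 1 identifier, and low counts widen a ratio.

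The panel's miR-30a probe, of the same family, and miR-384-5p, which has the same seed, stood at or near background. The miR-30a probe, whose miRNA comes from the chromosome 1 locus that also makes miR-30c, counted 81, 81, 91, 78 and 81 in wild type 1 to 5, below the threshold of each library. It counted 75, 125, 127, 177 and 122 in mutant 6 to 10, above the threshold in mutant 8, 9 and 10. It was above background in 3 libraries and was therefore not tested. The count in mutant 9 was 1.65 times the threshold and the highest of the 10, and mutant 9 also had the highest raw count of each of the 4 members. Mature miR-30a and miR-30e differ at position 13 only, as shown above, and binding of either miRNA to the other probe was not tested. miR-384-5p, made on the X chromosome, counted 12 to 26, with 0 of 10 libraries above background. Passenger arms of the miR-30 hairpins were not analysed here.

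**Figure D4:**
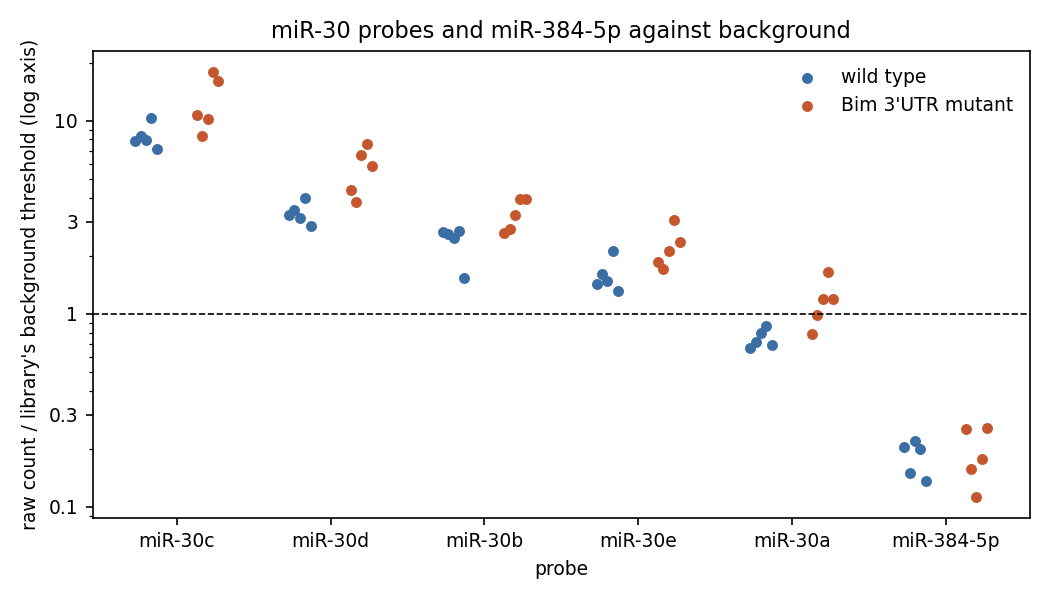
Raw counts of the 4 miR-30 members, miR-30a and miR-384-5p divided by the background threshold of the same library (log axis), for wild type (blue) and mutant (orange) libraries, 1 point a library. The dashed line marks the threshold. The 4 members lie above it in all 10 libraries, miR-30a crosses it in 3 mutant libraries, and miR-384-5p stays at or below 0.255 of it.

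The scaling set the size of all 4 values but not their sign. With the 4 housekeeping mRNAs as the reference, the miR-30 members had a median log2 fold change of 0.83 and all tested miRNAs one of 0.46. With the positive control probes as the reference these medians were 0.54 and 0.20. With TMM over all 566 mouse miRNA probes and no filter on low counts, the medians were 0.52 and 0.22. The values above are thus relative to the typical tested miRNA. All 4 members were above 0 under every scaling, filter, test and left-out library tried.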

How the data were processed

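Per the labels' protocols, miRNeasy kits were used for extraction, impure samples were dropped, and 100 ng of total RNA went on the nCounter. The 2 deposited tables list raw probe counts (whole numbers whose totals and control probes differ between libraries) with the same values for all 626 probes; the authors' further steps are not stated in the labels or headers. The raw table's own mean, minimum, maximum and CV columns were not used. Groups and sample numbers came from the sample titles. Counts of the 116 probes above background in at least 5 libraries were tested by a robust quasi-likelihood fit (edgeR 4.0.16 under R 4.3.3, TMM factors from 0.872 to 1.11) on genotype over all 10 libraries, with Benjamini-Hochberg adjustment over all 116 at 0.05. Intervals use the fold change, its SE and the fit's degrees of freedom. Normalised counts are counts divided by relative effective library size. For ratios, group means were tested by exact permutation, two-sided (scipy 1.17.1). Alternatives were other scalings and filters, background subtraction, DESeq2 1.42.0, limma 3.58.1 with voom, a fit without robust estimation, and left-out libraries. The members, lists and alternatives were chosen with earlier results of these data known. Named miRNAs are the members, their panel relatives, and for each member the 2 tested probes outside the family with the steadiest ratio. Of the 6 probes looked up, 4 matched a mature sequence. Counting errors cover sampling of counts only.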

Additional observations from a re-analysis of the deposited data

Results flagged for a closer look

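In 26 groups of 5 values (normalised counts of the members, raw counts of miR-30a and miR-384-5p, ratios and the family share, in each genotype), 1 value lay far from the rest of its group: the miR-30a count of 91 in wild type 3, where the next highest wild type count was 81. It was below that library's background threshold. Chance marks about 1 in 20 such groups.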

How the results depend on the processing

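No paired analysis was possible because the wild type libraries carry the numbers 1 to 5 and the mutant libraries 6 to 10. The count of called miRNAs was 0 in edgeR, 5 with the DESeq2 Wald test, 5 without mutant 9 and 10, and 0 to 1 when single libraries were left out (1 without mutant 9, miR-16, and 1 without mutant 10, miR-29b); it stayed at 0 under the other settings. Among the members, the DESeq2 test made a call for miR-30d alone (log2 fold change 0.52, adjusted p = 0.00455). Over its 24 alternatives the adjusted p of miR-30d ran from 0.00455 to 0.542 and its log2 fold change from 0.43 to 1.02. The others ran from 0.14 to 0.72 (miR-30b), 0.10 to 0.89 (miR-30c) and 0.14 to 0.77 (miR-30e), the upper ends under housekeeping scaling. With single libraries left out, the ranges were 0.45 to 0.59 for miR-30d, 0.14 to 0.30 for miR-30b, 0.26 to 0.42 for miR-30c and 0.18 to 0.31 for miR-30e. The exact permutation test of log2 normalised counts gave p = 0.00794 for miR-30d (adjusted p = 0.263). Differences of log2 ratios turned sign where they were near 0. After background subtraction miR-30c over miR-30b was -0.015, miR-30e over miR-30b 0.059 and miR-30e over miR-30c 0.074. miR-30e over miR-30d kept its sign, at -0.16. Without mutant 9 and 10, miR-30c over miR-30b was -0.065 and miR-30e over miR-30c 0.038. With single libraries left out, miR-30e over miR-30b ran from -0.080 to 0.086. No ratio passed after adjustment under any alternative, and the cause of these turns was not tested. With any library left out, the smallest p of the exact test was too high for a single ratio to pass after adjustment over 6 pairs. With 3 mutant libraries the smallest p of the two-sided exact test is higher than the 0.00794 that 5 against 5 can give. The counts of miR-30e, near the threshold, are the ones that background limits most.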
